A study of Mus musculus with 14 samples.

Results

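Protein-coding promoter peaks were taken from 10 chromatin immunoprecipitation (ChIP-seq) peak lists of differentiating mouse myoblasts. A peak was kept if it lay off the mitochondrial chromosome, if the authors' annotation placed it in the promoter-TSS class, if the nearest gene was of the protein-coding type, and if its detailed class did not begin with CpG. The rule kept 10411 of 517058 deposited peaks (517016 of them off the mitochondrial chromosome), and these named 7221 genes. The promoter-TSS class reaches from 1000 bp before to 100 bp after the start of a transcript. Values used by the rule are the annotation class and gene type; peak scores and positions within the promoter were not used.

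The name given to these peaks, promoters outside CpG islands, did not hold in the files. All 11859 promoter-TSS peaks carried a promoter-TSS detailed class, so that 0 protein-coding promoter peaks carried a CpG class and the clause on CpG removed none. The 4435 peaks whose detailed class begins with CpG were intronic (2777) or intergenic (1658). The peaks are therefore called protein-coding promoter peaks here. Where a RefSeq promoter window of the named gene could be matched within 100 bp of the start that the authors used, its bases were read to class the start. A window was called CpG-rich at a GC content of at least 50% and an observed-to-expected CpG ratio of at least 0.6, and CpG-poor otherwise. Windows matched 7587 of the 10411 peaks (72.9%), and 4257 of these were CpG-rich, which is at least 40.9% of all the promoter peaks. Because fewer than 80 in 100 peaks were matched, the split describes the matched peaks alone. A comparison with promoter peaks inside CpG islands was void, since the detailed class held none.

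The cells were C2C12, an established mouse myoblast line that fuses into myotubes when serum is withdrawn, taken at day 2 of differentiation. Cells labelled control were set against cells given an siRNA to Myolinc, a long noncoding RNA next to Filip1, at 10 nM; the labels do not say whether control cells received a control siRNA. Chromatin was precipitated with 10 µg of antibody to TDP-43 (3 control lists and 1 siMyolinc list) or to MyoD, Myogenin or elongating RNA polymerase II, whose C-terminal domain carries phosphate on serine 2 (Pol II S2P; 1 control and 1 siMyolinc list each), and each list was called against IgG. Of 14 samples, 4 input or IgG samples without a list of their own were not analysed here. Nothing says that the 3 TDP-43 control libraries came from separate cultures, so p-values measure only the spread between these libraries, which may be technical. Loss of Myolinc RNA cannot be read from peak lists and was not checked.

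Mammalian promoters fall broadly into those rich in CpG, which serve widely expressed genes and often start transcription at many neighbouring bases, and those poor in CpG, which are common at tissue-restricted genes such as those of the contractile apparatus. MyoD and Myogenin are basic helix-loop-helix factors of the myogenic programme that bind the E-box CANNTG as dimers with E proteins. TDP-43, encoded by Tardbp, binds RNA and single-stranded DNA rich in TG repeats. Serine 2 phosphorylation marks polymerase that is elongating and is usually highest through gene bodies.

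The sequences below are those of starts on which the results turn: the 250 bases before the RefSeq start (build GRCm38.p6), 5′ to 3′ on the strand of the gene, with capitals for bases inside the peak of 1 named list. Myt1l, L1td1, Adgb and Gtf2a1l recurred across TDP-43 and Pol II S2P lists at the start itself. The first lies at chr12:29534655-29534904 on the plus strand (capitals: TDP-43 control replicate 1), L1td1 at chr4:98726504-98726753 on the plus strand (TDP-43 siMyolinc), Adgb at chr10:10472400-10472649 on the minus strand (Pol II S2P siMyolinc) and Gtf2a1l at chr17:88668410-88668659 on the plus strand (TDP-43 control replicate 1).
Myt1l: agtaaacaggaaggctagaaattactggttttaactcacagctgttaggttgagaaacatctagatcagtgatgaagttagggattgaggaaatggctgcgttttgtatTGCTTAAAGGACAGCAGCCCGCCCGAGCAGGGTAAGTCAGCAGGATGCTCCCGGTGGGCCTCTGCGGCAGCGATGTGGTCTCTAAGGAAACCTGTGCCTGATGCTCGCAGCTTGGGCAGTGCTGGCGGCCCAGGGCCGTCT
L1td1: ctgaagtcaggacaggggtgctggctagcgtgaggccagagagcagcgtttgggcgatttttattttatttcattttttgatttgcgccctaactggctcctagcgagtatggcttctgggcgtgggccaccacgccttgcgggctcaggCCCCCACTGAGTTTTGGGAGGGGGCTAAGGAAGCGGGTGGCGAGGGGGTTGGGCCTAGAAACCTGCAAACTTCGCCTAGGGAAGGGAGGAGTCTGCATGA
Adgb: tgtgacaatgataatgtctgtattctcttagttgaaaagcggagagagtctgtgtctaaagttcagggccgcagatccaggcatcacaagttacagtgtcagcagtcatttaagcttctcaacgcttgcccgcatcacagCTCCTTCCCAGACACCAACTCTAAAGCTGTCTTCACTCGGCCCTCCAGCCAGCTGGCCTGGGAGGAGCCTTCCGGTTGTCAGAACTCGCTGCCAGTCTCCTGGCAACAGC
Gtf2a1l: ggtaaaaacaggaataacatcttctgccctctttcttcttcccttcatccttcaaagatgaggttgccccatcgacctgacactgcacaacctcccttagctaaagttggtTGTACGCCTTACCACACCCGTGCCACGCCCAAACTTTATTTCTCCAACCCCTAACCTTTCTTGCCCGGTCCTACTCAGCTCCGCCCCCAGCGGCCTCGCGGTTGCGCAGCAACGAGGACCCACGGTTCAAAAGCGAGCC

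The next 4 belong to muscle genes. Ckm lies at chr7:19410844-19411093 on the plus strand (capitals: TDP-43 control replicate 3), Acta1 at chr8:123894776-123895025 on the minus strand (Pol II S2P siMyolinc), Myog at chr1:134289754-134290003 on the plus strand (TDP-43 control replicate 1) and Filip1 at chr9:79977883-79978132 on the minus strand (Myogenin siMyolinc). Yipf6, at chrX:98937531-98937780 on the plus strand (MyoD control), is the promoter at which a MyoD peak was found at the same site in both conditions with high rank.
Ckm: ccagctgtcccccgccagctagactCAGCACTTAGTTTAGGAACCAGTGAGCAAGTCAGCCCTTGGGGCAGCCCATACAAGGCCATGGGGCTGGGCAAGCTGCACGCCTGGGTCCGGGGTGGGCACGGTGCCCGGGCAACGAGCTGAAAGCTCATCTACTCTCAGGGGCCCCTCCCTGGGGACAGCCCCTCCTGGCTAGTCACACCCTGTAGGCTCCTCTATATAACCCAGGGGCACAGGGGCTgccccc
Acta1: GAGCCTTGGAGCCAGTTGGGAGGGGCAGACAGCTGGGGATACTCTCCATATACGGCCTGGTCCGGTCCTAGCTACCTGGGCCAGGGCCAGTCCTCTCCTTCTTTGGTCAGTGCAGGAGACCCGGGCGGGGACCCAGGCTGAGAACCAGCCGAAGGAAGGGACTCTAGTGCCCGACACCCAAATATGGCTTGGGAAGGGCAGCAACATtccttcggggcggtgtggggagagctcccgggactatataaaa
Myog: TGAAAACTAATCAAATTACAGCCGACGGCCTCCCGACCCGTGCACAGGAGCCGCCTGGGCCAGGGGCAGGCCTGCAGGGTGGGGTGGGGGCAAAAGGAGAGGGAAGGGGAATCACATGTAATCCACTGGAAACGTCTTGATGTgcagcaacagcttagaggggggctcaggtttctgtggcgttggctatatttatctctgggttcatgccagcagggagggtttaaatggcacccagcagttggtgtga
Filip1: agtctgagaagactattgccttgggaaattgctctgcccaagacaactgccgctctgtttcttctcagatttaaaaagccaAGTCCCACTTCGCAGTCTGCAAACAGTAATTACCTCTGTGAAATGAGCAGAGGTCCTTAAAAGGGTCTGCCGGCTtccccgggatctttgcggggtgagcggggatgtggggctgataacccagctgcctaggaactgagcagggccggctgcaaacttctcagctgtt
Yipf6: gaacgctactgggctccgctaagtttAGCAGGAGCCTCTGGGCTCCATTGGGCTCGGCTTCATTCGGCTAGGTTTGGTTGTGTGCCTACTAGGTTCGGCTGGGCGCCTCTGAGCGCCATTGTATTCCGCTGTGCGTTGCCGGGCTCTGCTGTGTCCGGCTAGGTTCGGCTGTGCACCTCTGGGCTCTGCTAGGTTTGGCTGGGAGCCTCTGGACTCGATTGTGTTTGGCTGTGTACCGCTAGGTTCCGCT

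By the CpG measure above, the windows of Gtf2a1l (observed-to-expected ratio 0.801) and Yipf6 (0.699) were CpG-rich. The other 7 were CpG-poor, from 0.226 at Ckm to 0.559 at L1td1. The E-box CANNTG, which reads the same on both strands, occurred once each upstream of Myt1l, Adgb and Ckm, each time as CAGCTG, beginning at -212, -61 and -249 from the start. Filip1 held 3 E-boxes, beginning at -207, -48 and -8, none of them inside the Myogenin siMyolinc peak shown in capitals. Acta1 held 2, at -238 and -221, both inside its Pol II S2P peak, and Myog held 2, at -138 and -12, of which the first lay inside its TDP-43 peak. L1td1, Gtf2a1l and Yipf6 held none in these 250 bases.

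The lists differed in length from 8162 to 116064 peaks. Scores in every list were whole multiples of 1 step within 0.05, and this step was taken as 1 tag. If scores are scaled to 10000000 tags, the libraries held 962387 to 3774954 tags, and the 3 TDP-43 control lists and the Pol II S2P control list (962387 to 1455043 tags) were the shallowest. Promoter peaks held a median of 6 to 20 tags, except 104 in the Myogenin siMyolinc list. Peaks of the MyoD and Myogenin siMyolinc lists were 75 bp wide at the median, against 217 to 249 bp in the other 8 lists. Depth, list length and width thus move with antibody and condition, and their part in the results was not tested beyond the alternatives given beside them. Intervals are 95% Wilson intervals for shares and exact Poisson intervals for tags, and they cover counting error only.

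Protein-coding promoters took a larger part of the TDP-43 and Pol II S2P control lists than of the other lists. Protein-coding promoter peaks made up 3.84%, 4.39% and 4.50% of the 3 TDP-43 control lists (1142, 464 and 367 peaks) and 2.21% of the TDP-43 siMyolinc list (551 peaks). Control TDP-43 averaged 4.24% ± 0.349 (SD, n = 3), and the siMyolinc list lay below all 3 controls by 2.04 percentage points, beyond their spread. The exact two-sided permutation p was 0.25, the smallest that 3 lists against 1 can give. The Pol II S2P share was 3.16% in control (339 peaks; interval 2.85 to 3.51) and 1.74% after siMyolinc (2021 peaks; 1.67 to 1.82). For MyoD and Myogenin the order was the other way round. The MyoD share was 1.24% in control (891 peaks; 1.16 to 1.32) and 2.41% after siMyolinc (2635 peaks; 2.32 to 2.50), and the Myogenin share 1.26% (1452 peaks; 1.2 to 1.33) and 2.69% (549 peaks; 2.47 to 2.92). These 3 antibodies had 1 list in each condition and hence no replicates to set a difference against. With the same number of best-scoring peaks from every list (8162), the MyoD difference fell to 0.478 and the Myogenin difference to 0.539 percentage points, with their directions kept.

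**Figure D1:**
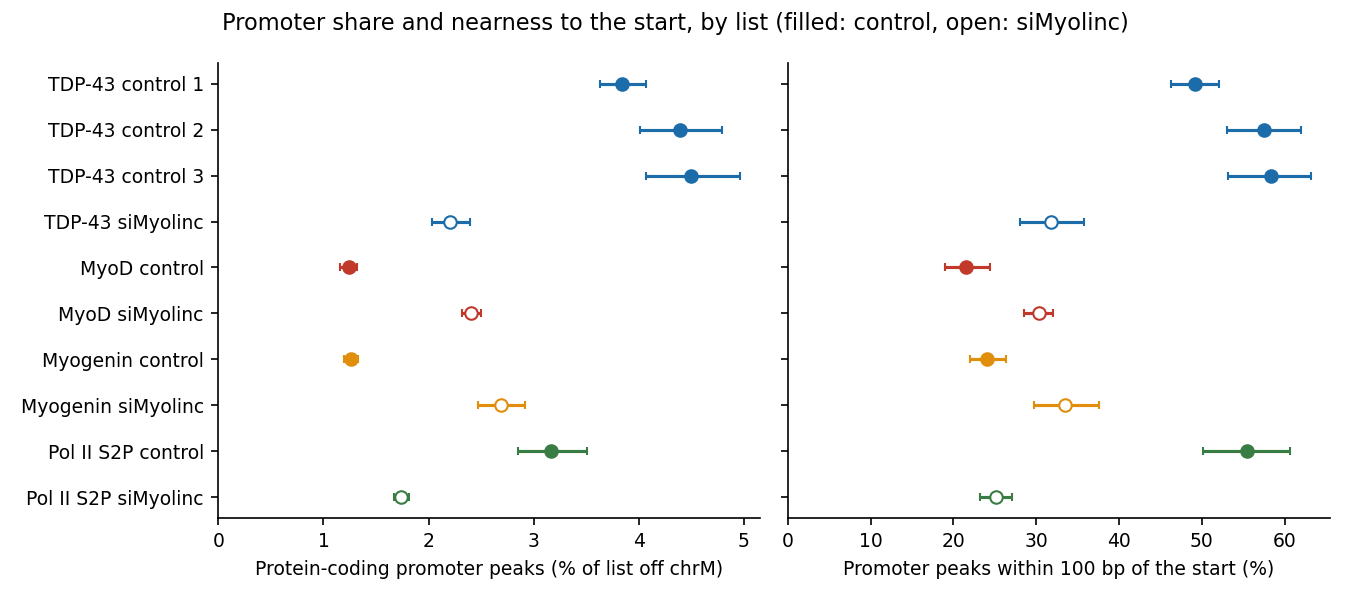
Left, protein-coding promoter peaks as a percentage of each list off the mitochondrial chromosome. Right, the percentage of those peaks centred within 100 bp of the start. Points are lists (filled for control, open for siMyolinc) and bars are 95% Wilson intervals. The 4 TDP-43 and Pol II S2P control lists are highest in both panels, at 3.16% to 4.50% and 49.1% to 58.3%.

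Within promoters, TDP-43 and Pol II S2P peaks of control cells sat on the start, while MyoD and Myogenin peaks were spread over the upstream kilobase. The share of promoter peaks centred within 100 bp of the start was 49.1%, 57.5% and 58.3% in the 3 TDP-43 control lists and 55.5% in the Pol II S2P control list. It was 21.5% in the MyoD control list and 24.1% in the Myogenin control list, where an even spread over the class would give 18.3%. All 4 siMyolinc lists lay between these groups: the share was 31.8% with TDP-43 antibody, 30.3% with MyoD, 33.5% with Myogenin and 25.1% with Pol II S2P. The TDP-43 siMyolinc list lay below all 3 of its controls (55% ± 5.10, SD, n = 3) by 23.2 percentage points, with an exact permutation p of 0.25, the smallest possible. Pol II S2P differed by 30.4 percentage points in the same direction (interval in control 50.1 to 60.7, after siMyolinc 23.2 to 27.0). The 4 lists with the highest shares are also the 4 of lowest depth. In the best-scoring peaks taken in equal number from every list, an alternative chosen after seeing the data, the TDP-43 difference was 24.3 and the Pol II S2P difference 25 percentage points. The MyoD difference of 8.74 percentage points turned to -1.93 there, while that of Myogenin went from 9.41 to 12.5.

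Median distances told the same order. Peaks of the TDP-43 control lists were centred at -75.5, -49.5 and -30 bp from the start at the median (negative values lie upstream) and those of the Pol II S2P control list at -59 bp. The median was -364 bp in the MyoD control list and -322 bp in the Myogenin control list. After siMyolinc the median distance was -177 bp in the TDP-43 list, -200 bp in the MyoD list, -150 bp in the Myogenin list and -272 bp in the Pol II S2P list. The part of the promoter more than 500 bp upstream held 12.5% to 16.2% of TDP-43 and Pol II S2P control peaks, 35.6% to 36.8% of Myogenin and MyoD control peaks and 25% to 31.9% of the siMyolinc peaks. Centres downstream of the start made up 32.2%, 37.1% and 40.9% of TDP-43 control peaks and 24.0% of TDP-43 siMyolinc peaks.

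**Figure D2:**
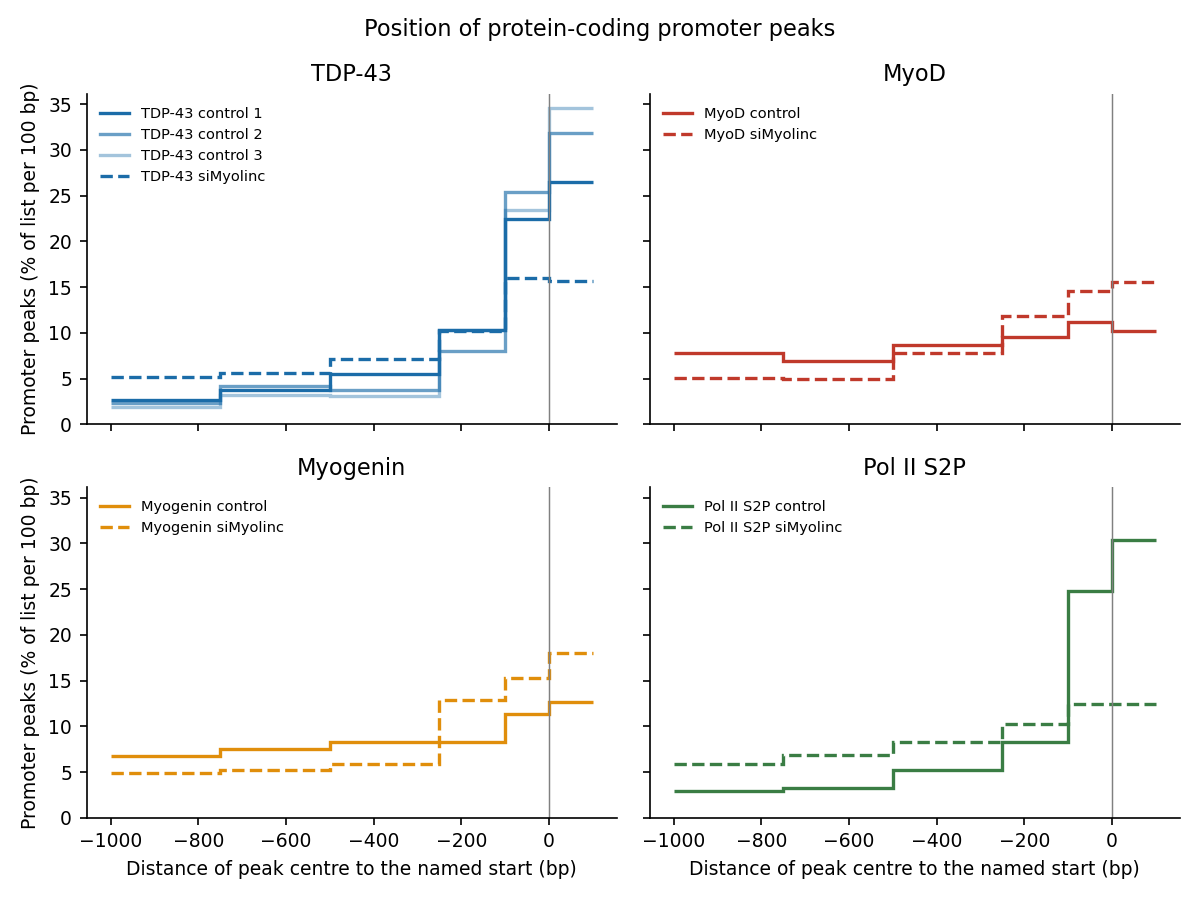
Distance of the peak centre to the named start (bp, negative upstream) against the percentage of promoter peaks of a list per 100 bp, in 1 panel per antibody. Solid lines are control lists and dashed lines siMyolinc lists; centres over 100 bp downstream are not drawn. The TDP-43 and Pol II S2P control lines climb at the start, where 49.1% to 58.3% of their peaks lie within 100 bp, and the MyoD and Myogenin control lines are the flattest.

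Tag number and position did not go together in one way across the lists. Among TDP-43 control peaks, those with more than the median number of tags lay within 100 bp of the start in 53.2%, 64.9% and 65.9% of cases, against 45.8%, 53.4% and 54.0% of the rest. In the Myogenin control list the better-tagged promoter peaks were fewer at the start, at 17.6% against 30.1%, and likewise in the MyoD siMyolinc list at 25.4% against 34.9% and in the Myogenin siMyolinc list at 28.7% against 38.3%. The better-tagged and the other peaks lay closer together in the TDP-43 siMyolinc list (31.3% against 32.1%), the MyoD control list (21.7% against 21.4%) and the Pol II S2P lists (54.5% against 56.1% in control, 23.9% against 26.2% after siMyolinc), so that lists of 1 antibody differed among themselves. Across all 10 lists the tags of promoter peaks and of the other peaks had equal medians in 7 lists and a lower promoter median in 3 (exact paired permutation p = 0.25, adjusted over 6 paired tests p = 0.3).

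Among matched peaks, those of TDP-43 and Pol II S2P lay near the start more often at CpG-poor than at CpG-rich starts. At CpG-poor starts, 61.7%, 71.8% and 70.6% of TDP-43 control peaks lay within 100 bp of the start, against 43.4%, 48.5% and 52.9% at CpG-rich starts. The TDP-43 siMyolinc list had 44.7% against 23.8%, the Pol II S2P control list 70% against 43.8% and the Pol II S2P siMyolinc list 30.5% against 20.3%. MyoD and Myogenin showed little separation: the differences were -0.643 and 3.53 percentage points for MyoD and 3.24 and -1.64 for Myogenin, in control and siMyolinc. Over the 10 lists the share was higher at CpG-poor starts in 8, by 12.1 percentage points ± 10.4 (SD; exact paired permutation p = 0.00781, adjusted p = 0.0234). The excess was 19.4 ± 5.50 percentage points over the 6 TDP-43 and Pol II S2P lists and 1.12 ± 2.65 over the 4 MyoD and Myogenin lists, and the ranges did not overlap (exact permutation p = 0.00476, the smallest possible). This grouping of antibodies was chosen after the values were seen, so that this p-value does not test it, and lists of 1 antibody are not independent of each other. The excess of TDP-43 was 18.3, 23.3 and 17.7 percentage points in control and 20.9 after siMyolinc, so that the siMyolinc value lay inside the range of the controls.

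**Figure D3:**
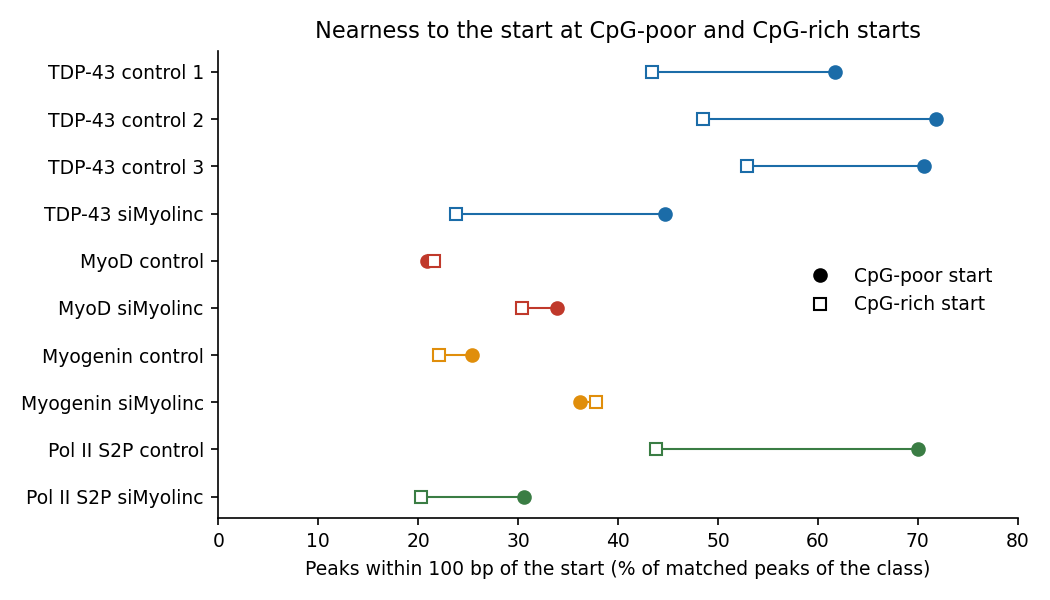
Percentage of matched promoter peaks centred within 100 bp of the start, for CpG-poor starts (filled circles) and CpG-rich starts (open squares), with 1 row per list. The lines join the classes of a list: they are 10.3 to 26.3 percentage points long in the TDP-43 and Pol II S2P lists and under 4 percentage points in the MyoD and Myogenin lists.

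CpG-poor genes were listed less often than CpG-rich genes. A promoter peak was listed for 3.56% of 9040 genes with CpG-poor windows alone and for 5.37% of 7338 genes with CpG-rich windows alone, as means over the 10 lists, and the CpG-poor share was lower in 10 of 10 (exact paired permutation p = 0.00195, the smallest possible, adjusted p = 0.0117). The gap was widest in the MyoD siMyolinc list, at 7.04% against 15.3%, and narrowest in the Pol II S2P control list, at 1.36% against 1.42%. With a stricter definition of CpG-rich (ratio 0.75, GC 55%), chosen after seeing the data, the difference went from -1.81 to -0.934 percentage points and no longer passed (exact paired permutation p = 0.189). Median tags per peak were higher at CpG-poor starts in 4 lists and equal in 6 (exact paired permutation p = 0.125, adjusted p = 0.188). In the Pol II S2P siMyolinc list the mean tags were nearly equal, at 12.2201 (CpG-poor) and 12.2199 (CpG-rich). Mean tags per peak were higher at CpG-poor starts by 0.11 on the log2 scale over the 10 lists, and in 9 of them (exact paired permutation p = 0.0137, adjusted p = 0.0273). That difference was 0.03 among peaks at or above the median score (exact paired permutation p = 0.172) and 0.05 without the pair of lists of 75 bp peaks (exact paired permutation p = 0.0547).

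Most promoter genes were seen in a single list. Of the 7221 genes, 5205 occurred in 1 list, 1427 in 2, 391 in 3, 154 in 4, 35 in 5, 7 in 6 and 2 in 7. Of the 21900 protein-coding genes of the reference, the share listed (percent called) was 5.08%, 2.11% and 1.65% in the TDP-43 control lists, 2.49% in the TDP-43 siMyolinc list, 4.01% and 11.2% in the MyoD control and siMyolinc lists, 6.46% and 2.44% in those of Myogenin and 1.54% and 8.88% in those of Pol II S2P. These shares are the background for every count of genes below.

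Gene names recurred among the TDP-43 control lists and the Pol II S2P control list. The series has 1 IgG sample per condition, so lists of 1 condition may share their comparison sample while lists of different conditions may not. The overlaps are therefore given as a description, and the part of a shared IgG sample in them was not tested. Of the genes of TDP-43 control replicate 2, 40.7% were also in replicate 1 and 28.8% in replicate 3, and of those of replicate 3, 43.1% were in replicate 1 and 36.7% in replicate 2. Of replicate 1, the longest list, 16.9% and 14% were in the other two. Over the 6 directed pairs this was 8.01 to 17.4 times the share of all genes in the second list. Pol II S2P control genes made up 12.1%, 17.5% and 18.2% of the 3 TDP-43 control lists, 7.87 to 11.8 times the background. The MyoD and Myogenin control lists, of the same condition, held 6.12% to 9.39% and 11% to 12.1% of TDP-43 control genes, 1.53 to 2.34 and 1.71 to 1.88 times the background. A gene named by both lists was counted as having the same site if the distances of its peaks to the named start differed by at most 100 bp. This held at 68.6% to 79.7% of shared genes between TDP-43 controls and at 75.8% to 77.8% between TDP-43 and Pol II S2P controls. In these lists 49.1% to 58.3% of promoter peaks lay within 100 bp of the start, so some pairs can be alike by position alone. No background for same-site shares was computed, here or below. Where a gene has several starts, equal distances can belong to different places. Counted by centres within 100 bp of each other on the genome, an alternative chosen after seeing the data, the shares were 67.9% to 79.7% and 74.2% to 77.0%.

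Between conditions, TDP-43 lists had fewer genes in common than the TDP-43 controls had with each other. The TDP-43 siMyolinc list held 8.54%, 7.58% and 8.29% of the genes of the 3 control lists, 3.04 to 3.43 times the background, with the same site at 40% to 52.6% of them. The MyoD siMyolinc list held 14.9% of MyoD control genes, 1.33 times its background of 11.2%, with the same site at 20.6%. The Myogenin siMyolinc list held 2.97% of Myogenin control genes, 1.22 times its background, with the same site at 26.2%, and the Pol II S2P siMyolinc list 19.2% of control genes, 2.17 times its background, with the same site at 36.9%. MyoD and Myogenin, which share the E-box, had 9.79% of MyoD control genes in common, 1.52 times the background of the Myogenin control list. With centres within 100 bp on the genome the same-site shares were 40% to 50.5% with TDP-43 antibody, 16.8% with MyoD, 21.4% with Myogenin and 33.8% with Pol II S2P. With a tolerance of 500 bp around the distance to the start they were 82.3% (mean of 3), 75.6%, 71.4% and 72.3% in the same order, closer together across antibodies. The promoter class reaches only from 1000 bp before to 100 bp after the start. Many pairs of peaks in it can therefore fall within 500 bp by position alone, and these shares were set against no background. In equal numbers of best-scoring peaks, control genes listed again came to 4.25% in the TDP-43 list (mean of 3), 2.17% in the MyoD list (2 genes), 1.03% in the Myogenin list (1 gene) and 1.53% in the Pol II S2P list (4 genes). These were 2.44 to 7.56, 3.63, 1.61 and 2.12 times the background of those shortened lists. MyoD, Myogenin and Pol II S2P had 1 list per condition, so a difference between libraries and one between conditions cannot be told apart.

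**Figure D4:**
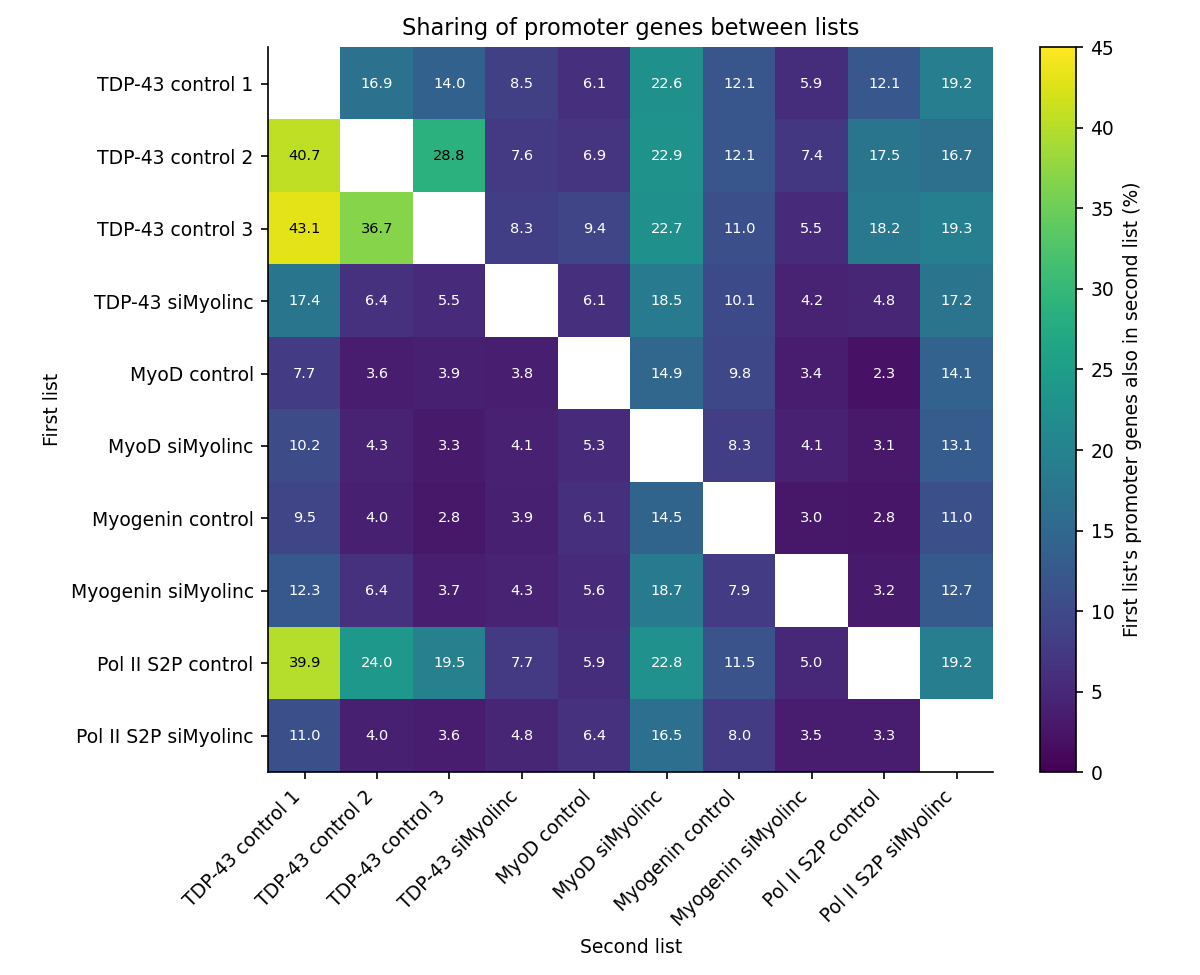
Percentage of the promoter genes of the first list (rows) that also have a promoter peak in the second list (columns), for the 90 ordered pairs of lists. The block of TDP-43 controls and the Pol II S2P control spans 12.1% to 43.1%, and the columns of the 2 longest lists of genes (MyoD and Pol II S2P siMyolinc) are high throughout.

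All 3 TDP-43 control lists named 63 genes, 0.288% of the protein-coding genes. Of these 63, 14 were in the Pol II S2P control list, which named 1.54% of all genes. The Myogenin control list (6.46% of all genes) held 11 and the MyoD control list (4.01%) held 6. The TDP-43 siMyolinc list (2.49%) held 5. Myt1l, a zinc finger factor of neurons, was 1 of the 5. Its peak held 14, 6 and 12 tags in the TDP-43 controls, 9 tags after siMyolinc and 10 in the Pol II S2P control list, centred at -17, 6, 25, -7 and 7 bp from the start. The 5 centres lay within 25 bp of the start: those at -17 and -7 bp fall in the end of the stretch printed above, and the other 3 lie downstream of it. The tag intervals overlapped (7.65 to 23.5 in TDP-43 control replicate 1, 4.12 to 17.1 after siMyolinc). The gene was listed in neither MyoD list, neither Myogenin list and not in the Pol II S2P siMyolinc list.

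Tmprss12, a membrane serine protease of testis, was also listed in all 4 TDP-43 lists. It held 11, 5 and 9 tags in control, centred at 42, -111 and 10 bp, and 7 tags at 70 bp after siMyolinc. A Pol II S2P siMyolinc peak of 10 tags at -27 bp lay within the range of these centres, and a MyoD siMyolinc peak of 21 tags at -210 bp lay upstream of all of them. L1td1, an RNA-binding protein derived from a LINE-1 element, was listed in 2 of the 3 TDP-43 controls (10 tags at 58 bp and 11 tags at 88 bp), in TDP-43 siMyolinc (7 tags at 8 bp) and in the Pol II S2P control list (11 tags at -14 bp). Its MyoD siMyolinc and Myogenin control peaks lay upstream, with 23 tags at -206 bp and 19 tags at -181 bp. Il12rb2, an interleukin receptor chain, showed the same order: TDP-43 control peaks of 13, 7 and 11 tags at 83, 94 and 49 bp and a Pol II S2P control peak of 6 tags at 23 bp, but a Myogenin control peak of 17 tags at -488 bp. Its MyoD siMyolinc peak held 12 tags at -73 bp.

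Other genes of all 3 TDP-43 controls were 1700028K03Rik (23, 9 and 8 tags at 87, 33 and 55 bp), Qrfpr, a G protein-coupled receptor for a neuropeptide (15, 7 and 7 tags at 85, 78 and 79 bp), and Oasl1, an interferon-induced gene of the oligoadenylate synthetase family. Not all genes of the 3 controls had peaks at the start. Slc14a1, also in all 3, had best peaks of 15, 9 and 6 tags at -375, -405 and -372 bp. Oasl1 lay farther out: its TDP-43 control peaks of 12, 18 and 11 tags were at -760, -781 and -768 bp. Pol II S2P control (9 tags at -755 bp), Myogenin control (8 tags at -805 bp) and MyoD control (6 tags at -841 bp) peaks covered the same stretch, so that Oasl1 was listed in all 6 control lists. After siMyolinc it was listed for MyoD alone, with 28 tags at -98 bp. Pfdn4, a prefoldin subunit, was the other gene of 7 lists, but its best peaks lay in separate places. Its TDP-43 peaks held 12 tags at -115 bp in control replicate 1 and 6 tags at -65 bp in replicate 2. After siMyolinc there were 8 tags at -133 bp. With the Pol II S2P control peak (8 tags at -155 bp), these lay within chr2:170496161-170496472. The peaks of MyoD control (11 tags), Myogenin control (11 tags) and Pol II S2P siMyolinc (18 tags) lay within chr2:170510224-170511112. Lrat, which esterifies retinol, was listed in all 4 TDP-43 lists, but 3 of its peaks, including that of TDP-43 siMyolinc, carried the promoter class of another transcript. The class belonged to a transcript of the named gene for 9567 of the 10411 peaks (91.9%), and at Ppp1r3d, a phosphatase subunit, centres at 835 to 870 bp downstream belonged to another transcript in each list.

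Of the 5 best-ranked genes with the same site in both conditions, TDP-43 and Pol II S2P each had 3 with centres within 100 bp of the start in both lists, Myogenin had 2 and MyoD 0. The sites farther out were Kank1 (-503 and -583 bp) and Mapk8ip2 (-149 and -123 bp) for TDP-43, and Magi1 (-267 and -220 bp) and Tbx1 (-690 and -705 bp) for Pol II S2P, control first. At Tmem216 for TDP-43, Mllt3 for MyoD and Ak1 for Myogenin the distances to the start were alike, but the centres lay more than 100 bp apart on the genome. Gtf2a1l, a testis form of a general transcription factor subunit, had the best TDP-43 promoter peak of control replicate 1 (27 tags at -15 bp). It had 11 tags at -6 bp after siMyolinc and 8 tags in each Pol II S2P list, at -38 and -93 bp. Adgb, an androglobin, held 12 tags at -32 bp in the Pol II S2P control list and 28 tags at -86 bp after siMyolinc. The tag intervals (6.20 to 21.0 and 18.6 to 40.5) overlapped, and the libraries held 1455043 and 3774954 tags. Scg5, a secretory granule chaperone, held 8 tags at 2 bp and 21 tags at 77 bp in the same pair. For MyoD, Yipf6, a Golgi membrane protein, held 11 tags at -109 bp in control and 34 at -129 bp after siMyolinc. For Myogenin, Npm2, a histone chaperone of oocytes, held 16 tags at -751 bp and 245 at -724 bp.

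**Figure D5:**
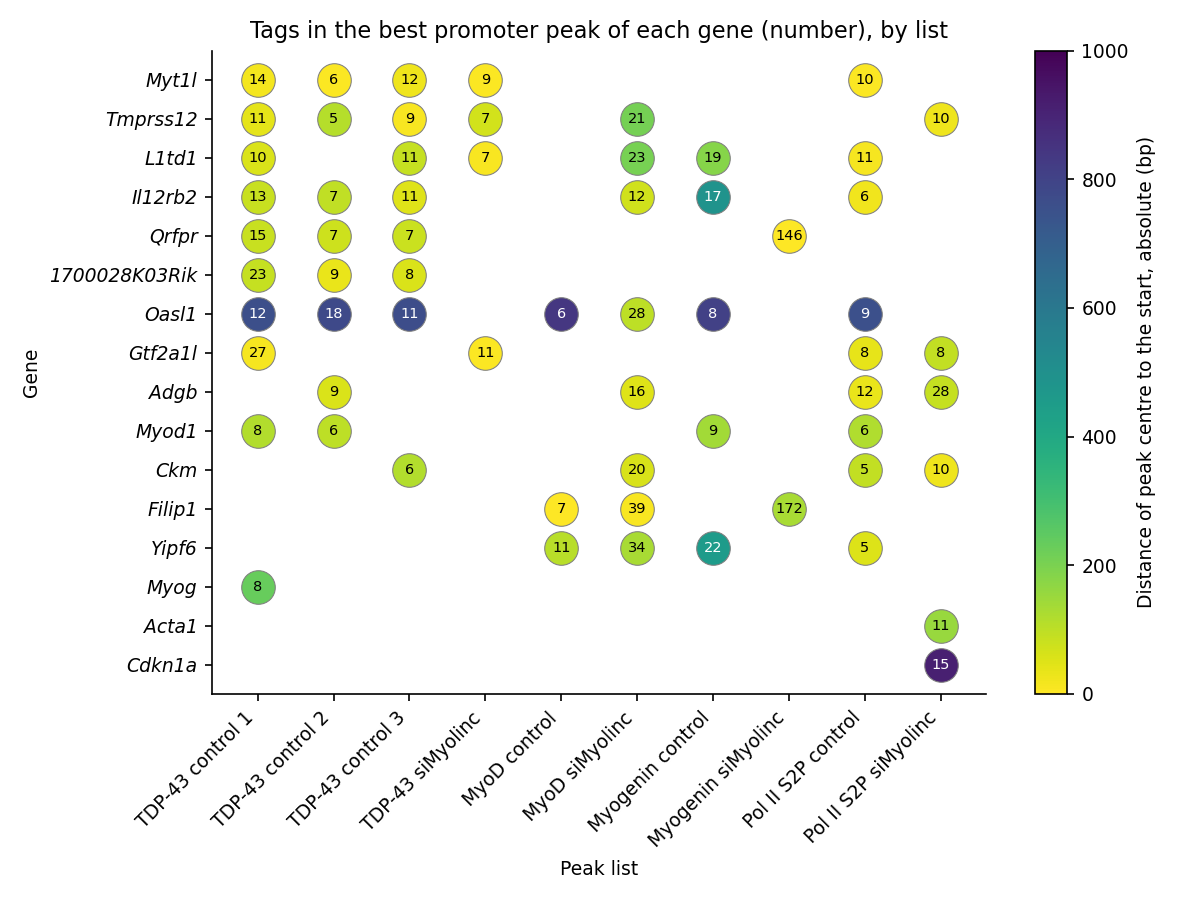
Tags in the best promoter peak (number in each circle) of 16 named genes in the 10 lists; an empty place means that no promoter peak was listed. Colour gives the absolute distance of the peak centre from the start in bp. TDP-43 and Pol II S2P peaks of Myt1l and Gtf2a1l sit within 93 bp of the start, while Oasl1 peaks sit between -841 and -755 bp in the 6 control lists.

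The gene with the best promoter peak of a list was found in that list alone in 5 of the 10 lists and in 2 or more lists in the other 5. The best-tagged in the MyoD siMyolinc list was Rab43 (80 tags at -358 bp) and in the Myogenin siMyolinc list Tspan2 (390 tags at -356 bp), each listed there alone. Sh3tc1 led the Myogenin control list with 53 tags at 30 bp, Olig2, an oligodendrocyte factor, led the Pol II S2P siMyolinc list with 46 tags at -651 bp, and Ddn, a dendritic protein, led the TDP-43 siMyolinc list with 16 tags at -408 bp. These 3 genes were also in TDP-43 control replicate 1, with 6 tags at 98 bp, 8 tags at -171 bp and 8 tags at -167 bp.

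Genes that mark muscle were listed a few at a time. Of 12 markers of differentiating muscle (Acta1, Actc1, Ckm, Des, Mb, Myh3, Mylpf, Tnnc2, Tnnt3, Ttn, Myod1 and Myog), each list named 0 to 4, with 4 in the Pol II S2P siMyolinc list (Acta1, Ckm, Mb and Tnnt3) 3 in the Myogenin control list (Actc1, Ttn and Myod1) and 0 in the Myogenin siMyolinc list. That is 33.3%, 25% and 0% of the markers, where 8.88%, 6.46% and 2.44% of all genes were listed. Any list named 9 of the 12 (75%, against 32.8% of all genes), and Des, Myh3 and Tnnc2 were in none. With 12 genes these shares are a description. A list of peaks gives no level of expression, so the identity of the cells was checked by no more than this.

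Myod1, the gene of the factor MyoD, had a promoter peak in 4 of the 6 control lists and in 0 of the 4 siMyolinc lists. Most control genes were likewise not listed again. The TDP-43 siMyolinc list held 8.54% and 7.58% of the genes of control replicates 1 and 2. For Myogenin and Pol II S2P the siMyolinc list held 2.97% and 19.2% of control genes. TDP-43 control replicates 1 and 2 held 8 and 6 tags at -115 and -101 bp, the Myogenin control list 9 tags at -138 bp and the Pol II S2P control list 6 tags at -121 bp. The Myogenin control peak lay at chr7:46376227-46376445 and the other 3 overlapped it. With 6 to 9 tags (interval for 6 tags 2.20 to 13.1), these are near the lowest tags a list held, so an absence elsewhere is no more than not listed. Depth did not run 1 way: the TDP-43 siMyolinc library held 3253050 tags, against 1394415 and 1086957 in control replicates 1 and 2. Pol II S2P held 3774954 after siMyolinc against 1455043 in control, and Myogenin 3040130 against 3400215. The part of depth was not tested. Myog, the gene of Myogenin, was listed once, in TDP-43 control replicate 1 with 8 tags at -232 bp.

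Ckm, the muscle creatine kinase, was listed in TDP-43 control replicate 3 (6 tags at -116 bp), in both Pol II S2P lists (5 tags at -91 bp in control, 10 tags at -25 bp after siMyolinc) and in the MyoD siMyolinc list (20 tags at -62 bp). These 4 peaks lay over the stretch printed above, and no other gene of the contraction list was in 4 lists. Filip1, the neighbour of Myolinc and a filamin-binding protein, held 7 tags at -3 bp in the MyoD control list and 39 tags at 8 bp in the MyoD siMyolinc list. It also held 172 tags at -132 bp in the Myogenin siMyolinc list. The MyoD intervals, 2.81 to 14.4 and 27.7 to 53.3, did not overlap, while the 2 libraries were nearly equal in depth (3378328 and 3312054 tags), and the median tags of MyoD promoter peaks were 8 and 20. No TDP-43 or Pol II S2P list named Filip1. Acta1, skeletal alpha-actin, was named by Pol II S2P siMyolinc alone (11 tags at -153 bp), as was Cdkn1a, the cell cycle inhibitor p21 (15 tags at -913 bp), and Tardbp by none.

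Of 91 genes of muscle structure and contraction, 41 had a promoter peak in at least 1 list (45.1%, against 32.8% of all protein-coding genes). By list the count was 2, 2 and 2 in the TDP-43 controls, 3 after siMyolinc, 6 and 17 for MyoD, 8 and 1 for Myogenin, and 1 and 13 for Pol II S2P, control first. The 17 MyoD siMyolinc genes are 18.7% of the 91, where 11.2% of all genes were called. The 13 Pol II S2P siMyolinc genes are 14.3%, where 8.88% were. The share was below background in TDP-43 control replicate 1 (2.20% against 5.08%), Myogenin siMyolinc (1.10% against 2.44%) and Pol II S2P control (1.10% against 1.54%). It was above background in the other lists, least so in TDP-43 control replicate 2 (2.20% against 2.11%). In the MyoD and Pol II S2P siMyolinc lists, neuronal and synaptic genes were at 16.3% each and ribosomal proteins at 15.5% and 11.9%. Cell cycle genes were at 6.38% and 4.26% there. The MyoD siMyolinc genes included Tcap, the titin cap (55 tags at -613 bp), Tnnt3, fast troponin T (38 tags at -172 bp), Nrap (32 tags at 24 bp) and Ldb3 (24 tags at -149 bp). None of these was in the MyoD control list, as held for most genes: 131 of all 2456 MyoD siMyolinc genes (5.33%) were in the MyoD control list. That list named Tnnt1, slow troponin T (12 tags at -223 bp), Mb, myoglobin (8 tags at -921 bp), and Dysf, dysferlin (6 tags at -367 bp). The Myogenin control list named Ttn, titin (19 tags at -114 bp), and Actc1, cardiac alpha-actin (9 tags at 81 bp). Of the 41 genes, 6 (14.6%) were listed in both a control and a siMyolinc list, near the 17.0% of all listed genes (1224 of 7193). Of their 60 peaks, 20 (33.3%) lay within 100 bp of the start, as did 33.0% of all promoter peaks. Of the 46 that matched a window, 41 (89.1%) were at CpG-poor starts, like the windows of the gene list itself (89.2% CpG-poor).

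Of 48 myogenic regulators, 26 had a promoter peak in at least 1 list (54.2%, against 32.8% of all protein-coding genes). The TDP-43 controls named 4, 1 and 2 (8.33%, 2.08% and 4.17%, where 5.08%, 2.11% and 1.65% of all genes were called). The TDP-43 siMyolinc list named 2 (4.17% against 2.49%). The MyoD lists named 2 and 10 (4.17% and 20.8%, against 4.01% and 11.2%), control first. The Myogenin lists named 6 and 3 (12.5% and 6.25%, against 6.46% and 2.44%), and the Pol II S2P lists 1 and 7 (2.08% and 14.6%, against 1.54% and 8.88%). Among them, the MyoD siMyolinc list named Srf, serum response factor (42 tags at -85 bp), Tcf12, an E protein (34 tags at -328 bp), and Mef2d (22 tags at -368 bp). The fusion proteins were listed for Myogenin alone: Tmem8c (myomaker) with 9 tags at 89 bp in control, and Gm7325 (myomixer) with 130 tags at -47 bp after siMyolinc. Twist1, which holds back muscle differentiation, was named by 3 siMyolinc lists (TDP-43 7 tags, MyoD 38, Pol II S2P 8), at -531, -707 and -158 bp. Of the 26, 1 gene (3.85%), Filip1, was in both a control and a siMyolinc list, against 17.0% of all listed genes.

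Lists of other cell types and families were counted the same way. Of 49 neuronal and synaptic genes, the TDP-43 controls named 5, 7 and 6 (10.2%, 14.3% and 12.2%, where 5.08%, 2.11% and 1.65% of all genes were called). The TDP-43 siMyolinc list named 1 (2.04%, near the 2.49% of all genes). Cacna1a, a calcium channel subunit of neurons, was named by all 3 controls, as was Camk2a. Both MyoD lists also named Cacna1a, and the MyoD siMyolinc list named Camk2a. The cell cycle list (47 genes) was named at 0 or 1 gene by each TDP-43 list and at no more than 4 elsewhere. In TDP-43 controls 1 and 3, 1 gene is 2.13%, against 5.08% and 1.65% of all genes. The 4 genes, in the Myogenin control list, are 8.51% against 6.46%. Of the cell cycle genes, 12 (25.5%) were in any list. Any list named 137 of 1106 olfactory receptors (12.4%), 36 of 353 vomeronasal receptors (10.2%) and 3 of 29 hepatocyte genes (10.3%), all below the 32.8% of all genes. Ribosomal proteins were named at 37 of 84, the fibroblast and matrix list at 10 of 25, keratins and keratin-associated proteins at 33 of 101, chemokines, interleukins and their receptors at 37 of 136, cytochromes P450 at 23 of 97 and serpins at 16 of 63. These counts carry no test.

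With both CpG classes pooled, the share of bound windows with an E-box was near that of all windows for MyoD and Myogenin. Windows whose peak centre lay inside them held the E-box CANNTG at 66.5% and 67.3% of MyoD peaks and 71.0% and 65.4% of Myogenin peaks (control, siMyolinc), against 69.0% of all 21263 protein-coding windows of 300 bases. Since CpG-poor windows hold the E-box more often (78.0%) than CpG-rich ones (58.1%) and the lists differ in their mix, the classes are also given apart. At CpG-poor starts it was at 78% and 81.8% of MyoD peaks and at 85.7% (interval 79.3 to 90.4) and 76.1% of Myogenin peaks, so that the Myogenin control list alone had an interval above its background. At CpG-rich starts MyoD and Myogenin lists held 55.3% to 59.1%, while the 4 TDP-43 lists held 66.8%, 63.8%, 71.3% and 69.2% and the Pol II S2P lists 73.3% and 65.9%, with intervals above 58.1% in 5 of these 6 lists (TDP-43 control replicate 2 being the exception). The form CAGCTG, which is contained in CANNTG, was at 13.8% and 17.9% of MyoD peaks and at 20.7%, 20.3% and 20.5% of TDP-43 control peaks, against 15.6% of all windows. At CpG-poor starts its interval lay above the 17.7% of all CpG-poor windows in 3 lists of 3 antibodies: MyoD siMyolinc at 27.6% (82 of 297; interval 22.8 to 33.0), TDP-43 control replicate 1 at 25.5% (20.0 to 31.9) and Pol II S2P siMyolinc at 23.1% (18.3 to 28.7). The MyoD control list held 12% there. The TATA sequence TATAAA, searched on both strands, was at 3.0% to 6.4% of windows under TDP-43 peaks against 12.6% of all windows. It was at 11.8% and 7.41% (interval 5.81 to 9.41) for MyoD and at 11.2% and 7.82% for Myogenin, control first. At CpG-poor starts it was at 8.33%, 6.82%, 7.25% and 3.37% of the TDP-43 lists (controls, then siMyolinc) against 19.2% of all CpG-poor windows. There it was at 13.2% and 15% of the Pol II S2P lists, control first. The MyoD lists held 18% and 12.1% (interval 8.89 to 16.3) there, and the Myogenin lists 16.2% and 12.7%. A share below background was thus not confined to TDP-43. The repeat TGTGTG, on both strands, was at 18.5%, 19.2% and 14.7% of windows under TDP-43 control peaks and at 19.2% after siMyolinc, against 18.7% of all windows. A match describes letters in a window and is no binding site.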

How the data were processed

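Peaks of each library were called by the authors against IgG and annotated with HOMER on mm10, per the submitters' processing notes. Neither the aligner nor any version or calling setting is given in the sources used here. The deposited peak score is the authors' own value, used to rank or filter peaks inside 1 list and, divided by its step, to count tags. The deposited focus ratio is a fraction and was not used. Deposited positions are those of mm10 peaks, and the other deposited values used were the distances to the start.

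Members and gene lists were chosen with earlier results of these data known. Genes were named by rule: those of all 3 TDP-43 control lists best by rank, those in most lists, the best per list and per shared site, muscle and myogenic list members, and Filip1, Myod1, Myog, Acta1, Cdkn1a and Tardbp; where more genes met it, examples are printed. Of 7221 member gene identifiers, 7216 were in the reference gene table. Windows and printed sequences are RefSeq's (GRCm38.p6). The same site means distances to the named start that differ by at most 100 bp, as planned. Planned comparisons with CpG-class promoter peaks and of repeats inside promoters were void, since no such peak existed. TDP-43 lists were compared by exact permutation, and paired classes by exact sign permutation over lists with Benjamini-Hochberg adjustment over 6 tests. Alternatives changed the score threshold, list length, promoter definition, site tolerance, site definition and replicates. Scripts were tested on simulated data. Python 3.11.15, numpy 2.4.6, pandas 2.3.3, scipy 1.17.1 and matplotlib 3.10.9 were used.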

Additional observations from a re-analysis of the deposited data

Results flagged for a closer look

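The lists fell apart by antibody in how much more often promoter peaks lay within 100 bp of CpG-poor than of CpG-rich starts. The mean excess was 19.4 percentage points over the 6 TDP-43 and Pol II S2P lists and 1.12 over the 4 MyoD and Myogenin lists, a difference of 18.3 percentage points (exact permutation p = 0.00476). The grouping was chosen after the values were seen, so that this p-value does not test it, and lists of 1 antibody are not independent. The difference was 15.2 percentage points in equal numbers of best-scoring peaks and 18.1 without the pair of lists of 75 bp peaks. Library depth and list length vary with antibody, and their further part in it was not tested.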

How the results depend on the processing

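The 3 TDP-43 control lists set against 1 siMyolinc list could not reach p below 0.25, and the other antibodies had 1 list per condition. Of 93 recomputed values, 64 kept direction and side of the threshold or stayed within the spread, 25 moved, 3 lost significance and 1 reversed. The 64 include the share of repeats (0%) and the share outside the CpG class (100%), which could not change in any setting. They also include TDP-43 differences between conditions that were judged by direction alone. The CpG-poor excess at the start passed in each alternative run (largest exact paired permutation p = 0.0254). Leaving out each TDP-43 control in turn gave differences from -2.24 to -1.91 percentage points in promoter share and from -26.2 to -21.6 in the share near the start. No paired analysis was possible because the groups share fewer than 2 replicate numbers. Leaving out repeats removed no peak.

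Among peaks at or above the median score, siMyolinc minus control fell to 0.569 (MyoD) and 0.729 (Myogenin) percentage points in promoter share and 2.64 (MyoD) in the share near the start. Control genes listed again came to 12.8% (Pol II S2P), 7.19% (TDP-43), 6.92% (MyoD) and 1.32% (Myogenin), listings of contraction genes to 35 from 55, and the log2 difference in tags to 0.0302. With equal numbers of peaks (8162) the promoter share differences were 0.478 (MyoD) and 0.539 (Myogenin), the MyoD difference near the start reversed to -1.93, and control genes listed again were 1.53%, 4.25%, 2.17% and 1.03% in the same order; fewer peaks were compared there. With starts from -1000 to +100 bp, TDP-43 control genes listed again were 7.63%. Counting overlap by 1 bp gave 10.4%, 5.12%, 3.87% and 0.849% listed again, with the same site at 53.8% of Pol II S2P and 62.8% of TDP-43 genes. A tolerance of 500 bp, wide for this promoter class, gave the same site at 72.3%, 82.3%, 75.6% and 71.4%. The tag difference was 0.053 without the lists of 75 bp peaks, and the difference in genes listed was -0.934 percentage points under the stricter CpG class. The cause of these changes was not tested. Centres within 100 bp on the genome, in place of distances to the start, gave the same site at 33.8%, 44.6%, 16.8% and 21.4%. This alternative, the lists without 75 bp peaks, the stricter CpG class and equal numbers for positions were chosen after seeing the data.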
